A study of Bos taurus with 24 samples.

Results

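The genes described are the ubiquitin ligases, their conjugating enzymes and adaptors, and the deubiquitinases of bovine monocyte-derived macrophages (MDMs) that could be named in these data. They were taken as every Ensembl gene of the deposited tables whose symbol begins with USP, TRIM, RNF, UBE2, UBE3, FBXO, FBXL, FBXW or KLHL, which gave 60 of the 24616 genes listed: 13 RNF, 12 USP, 12 TRIM, 6 FBXO, 5 FBXL, 5 KLHL, 4 UBE2, 2 UBE3 and 1 FBXW gene. The tables hold identifiers without symbols, and the symbols came from partial copies of the study's gene lists, so that 2808 identifiers had one and other genes of these families are not analysed here. For 36 of the 60 genes, the symbol stood in rows sorted by identifier, which is a choice without regard to expression. For the other 24, it stood only in rows sorted by the significance of the difference between the phenotypes at 18 hours, so that their 18 hours difference is given as a description with no test, and the share of them that responded to E. coli is not read as a property of the families.

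MDMs were grown for 6 days with 5 ng/ml GM-CSF from the blood monocytes of 6 mid-lactating Holstein cows, 3 of a high and 3 of a low responder group. The groups were set by how much nitric oxide the cows' MDMs release in vitro after E. coli. Per cow and time point, 1 well was left as a control and 1 well was exposed to inactivated E. coli at a multiplicity of infection of 5, and RNA was taken after 3 or 18 hours, which gave 24 libraries in 8 groups of 3. Library totals ranged from 6297189 to 20936550 counts, and the cows are named here by the number in their library code (cow 92), which holds within a phenotype and time point only. Cultured MDMs of 3 cows per phenotype limit what the groups stand for, and 3 values against 3 allow an exact permutation p of 0.1 at the least (two-sided). Of the macrophage and monocyte markers, 4 of 10 listed genes had an identifier (CD14, CD68, MSR1 and AIF1), were above 0 in every library and summed to between 1840 and 3205 CPM (counts scaled to library size) per library, with CD68 the most abundant. The B cell marker CD79A was at 0.128 to 1.94 CPM, and the dendritic cell, T and NK cell and erythrocyte markers had no identifier here.

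Ubiquitin is joined to proteins in a chain of steps in which an activating enzyme hands it to a conjugating enzyme (UBE2 genes), and a ligase places it on the substrate. HECT ligases such as the UBE3 proteins take ubiquitin on themselves, RING ligases such as the TRIM and RNF proteins bring conjugating enzyme and substrate together, and F-box (FBXO, FBXL, FBXW) and Kelch-like (KLHL) proteins choose substrates for cullin ligases, while USP enzymes remove ubiquitin again. In macrophages that meet bacteria, ubiquitin chains carry the signal from Toll-like receptors to NF-kappa B, and the ubiquitin-like protein ISG15, induced by interferon, is attached to proteins by its own activating enzyme UBA7, conjugating enzyme UBE2L6 and ligases HERC5 and TRIM25, and removed by USP18.

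Of the 60 genes, 53 passed edgeR's filter on low counts in the fits of both time points. RNF165, RNF17 and TRIM72 were listed at 0 in every library, and FBXO17, KLHL33, RNF112 and USP43 had between 2 and 54 counts over all 24 libraries, so that these 7 genes were not tested. Levels are compared between genes as TPM, which allow for library size and gene length. The highest mean over the 24 libraries was 218 ± 95.8 TPM (SD) for RNF13, a ligase of endosomes and lysosomes. RNF19B, a RING-between-RING ligase known from natural killer cells and macrophages, followed with 169 ± 122 TPM, and USP18 with 122 ± 91.1 TPM. RNF114, USP4, USP12, TRIM8, TRIM25, UBE2C and FBXL5 completed the first 10, all with means between 74.8 and 119.9 TPM and spreads over libraries that overlap widely. The lowest tested genes were FBXO31, KLHL13, KLHL3, FBXL21 and TRIM45, at means of 2.26 to 2.60 TPM. Together the 60 genes held 0.207% to 0.324% of the counts of the 3 hours control libraries and 0.306% to 0.434% of the 3 hours exposed libraries. At 18 hours the shares were 0.249% to 0.315% in control and 0.387% to 0.427% in exposed libraries, without overlap. These sums take in the 24 genes found through the 18 hours libraries, among them all of the first 10 by TPM. The shares are therefore a description and are not read as a property of the families.

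The first question was which of these genes changed when MDMs met E. coli. With edgeR's quasi-likelihood test of the mean effect over both phenotypes, called at a Benjamini-Hochberg adjusted p below 0.05 and a fold change above 1.5, 15 of the 53 tested genes rose at 3 hours, where 13.5% of all 11264 genes tested were called higher. Another 6 fell, where 12% of all genes were called lower (25.5% in either direction). At 18 hours 17 rose and 6 fell, beside 15.1% and 21.4% of all 11759 genes tested. The genes found by identifier alone held few of the rises: 1 of 29 tested at 3 hours (KLHL8) and 2 of 29 at 18 hours (KLHL8 and USP42), against 5 and 4 that fell. The 24 found by significance order held the other 14 and 15 rises, with 1 and 2 falls. The median log2 fold change was -0.15 at 3 hours and 0.13 at 18 hours in the former and 1.02 and 0.78 in the latter, and -0.02 at both times over all genes tested. Of the 53 genes, 13 were called higher at both time points and 2 lower at both. Another 2 were called higher and 4 lower at 3 hours alone, 4 higher and 4 lower at 18 hours alone, and 24 at neither. No share over all genes is given for these classes, so that their counts are only a description. Without regard to a test, the 6 exposed wells lay all above the 6 control wells in 9 genes and all below in 4 genes at 3 hours, beside 7.48% and 5.57% of all genes tested, and in 18 and 4 genes at 18 hours, beside 15.2% and 16.2%. In bulk libraries, fewer cells of a type and less RNA per cell cannot be told apart.

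**Figure D1:**
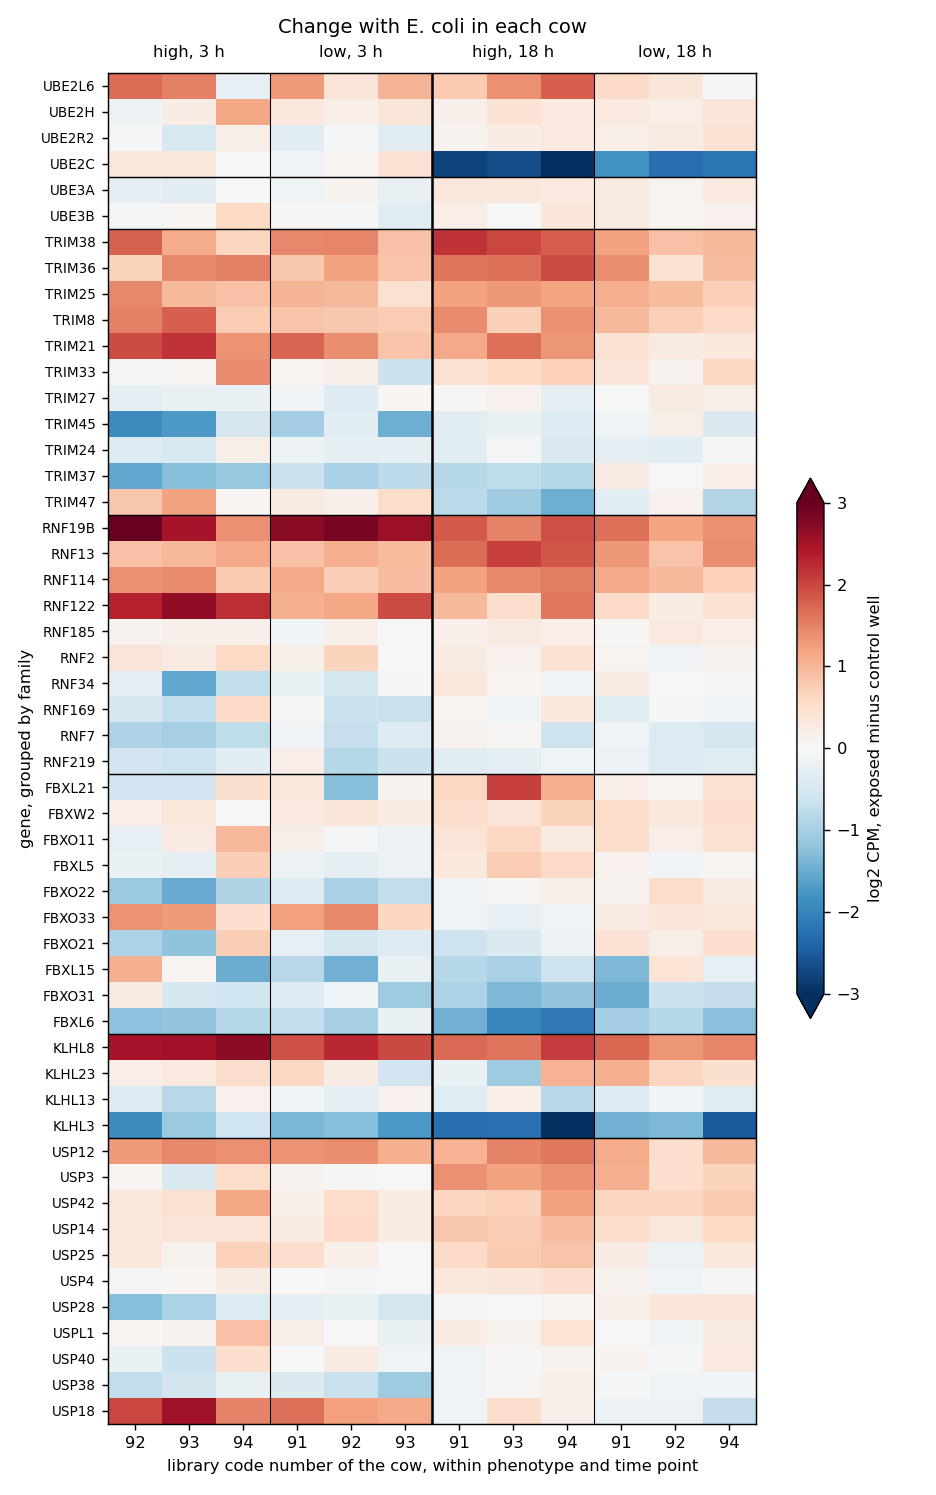
Log2 CPM of the exposed minus the control well for each of the 12 pairs of wells (columns, by phenotype, time point and library code number) and 52 of the tested genes (rows, grouped by family and sorted by the mean effect at 18 hours). Red cells are higher and blue cells lower in the exposed well. RNF19B, KLHL8 and USP12 are red in all 12 pairs, UBE2C turns from pale to dark blue between the time points and USP18 from red to pale.

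Among the RNF ligases, 4 of 10 tested rose at each time point and none fell at 18 hours by the same test, beside 13.5% and 15.1% of all genes called higher and 21.4% lower. The 4 were those found in significance order, and of the 6 tested RNF genes found by identifier 0 rose at either time point. RNF19B stood at 132, 147 and 146 CPM in the 3 hours control wells of the high responder cows 92, 93 and 94, and at 1052, 815 and 377 CPM in their exposed wells. In the low responder cows 91, 92 and 93 it went from 127, 142 and 117 to 826, 1019 and 698 CPM. Exposed and control wells did not overlap, and the high responder cow 94 showed the smallest change. The log2 fold change was 2.54 (adjusted p = 1.03e-05, SE 0.19), the largest rise of the 53 genes at 3 hours. At 18 hours RNF19B was at 108 to 119.5 CPM in control and 272 to 415 CPM in exposed wells, a log2 fold change of 1.57 (adjusted p = 1.58e-07, SE 0.08). RNF122, a membrane-anchored RING ligase, rose in all 6 cows at 3 hours, with 11.3 to 25.7 CPM in control and 38.4 to 100.2 CPM in exposed wells and a log2 fold change of 1.95 (adjusted p = 6.84e-06, SE 0.14). At 18 hours its log2 fold change was 0.71 (adjusted p = 5.17e-04, SE 0.12), which fell short of the fold change threshold without the high responder cow 94 (0.57). RNF13 and RNF114, a zinc finger RING ligase, rose by 1.03 and 1.10 at 3 hours and by 1.51 and 1.16 at 18 hours on the log2 scale, and RNF13 reached 599 to 776 CPM in the 18 hours exposed wells of high responders. RNF7, a RING partner of cullin 5 also known as SAG, fell at 3 hours by 0.60 on the log2 scale (adjusted p = 0.0042, SE 0.12), a call lost without the high responder cow 93 (-0.56) or the low responder cow 92 (-0.53). RNF2, RNF34, RNF169, RNF185 and RNF219 were called at neither time point, and RNF219 has estimated counts that are not whole in all 24 libraries, which makes its values uncertain.

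Among the TRIM ligases, 5 of 11 tested rose at 3 hours and the same 5 at 18 hours: TRIM8, TRIM21, TRIM25, TRIM36 and TRIM38. All 5 are among the 7 TRIM genes found in significance order, so that their share is not read against the 13.5% and 15.1% of all genes called higher, and of the 4 tested TRIM genes found by identifier 0 rose. TRIM21, a cytosolic receptor for antibody-coated pathogens, had 33.1, 17.9 and 15.4 CPM in the 3 hours control wells of high responders and 128, 80.7 and 39.1 CPM in their exposed wells. In low responders it had 37.9, 55.2 and 54.3 CPM in control wells and 128, 146 and 98.5 CPM in exposed wells. It was higher in the exposed well of each of the 6 cows, although the exposed well of the high responder cow 94 lay within the range of the low responders' control wells, and the log2 fold change was 1.62 (adjusted p = 2.86e-05, SE 0.14). At 18 hours it was 0.85 (adjusted p = 4.79e-06, SE 0.07). TRIM38, which restrains Toll-like receptor and TNF signalling, rose by 1.26 at 3 hours and 1.5 (adjusted p = 7.12e-08, SE 0.07) at 18 hours on the log2 scale. TRIM25, a ligase of the RNA sensor RIG-I and of ISG15, rose by 1.0 and 1.06. TRIM36 rose by 1.14 and 1.32, and TRIM8, a ligase of the TNF and interleukin 1 pathways, by 1.12 and 0.95. These 5 genes were higher in the exposed well of all 6 cows at each time point. TRIM37, a ligase that limits centriole assembly, moved the other way at 3 hours, with 18.1 to 40.8 CPM in control and 9.18 to 13.8 CPM in exposed wells, without overlap and with a log2 fold change of -1.02 (adjusted p = 9.28e-05, SE 0.11). TRIM45 fell at 3 hours as well, with 2.58 to 4.85 CPM in control and 0.568 to 3.44 CPM in exposed wells, groups that overlap, and its log2 fold change was -1.09 (adjusted p = 0.00916, SE 0.26). TRIM47 was called lower at 18 hours, with a log2 fold change of -0.74 (adjusted p = 6.82e-04, SE 0.13), although 1 low responder cow had the higher value in the exposed well. TRIM24, TRIM27 and TRIM33 were called at neither time point.

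The adaptors of cullin ligases changed in both directions. KLHL8, a Kelch-like adaptor of cullin 3 found here by identifier, rose in every cow. Its 3 hours control wells held 49.4, 38.6 and 33.1 CPM in high and 53.3, 63.8 and 62.9 CPM in low responders. Its exposed wells held 274, 221 and 216 CPM in high and 202, 307 and 248 CPM in low responders. No exposed well overlapped a control well, and the log2 fold change was 2.35 (adjusted p = 2.29e-07, SE 0.09) at 3 hours and 1.64 (adjusted p = 1.21e-07, SE 0.08) at 18 hours. KLHL3, the adaptor that brings WNK kinases to cullin 3 and is best known from the kidney, went down from 3.98, 5.90 and 4.33 to 0.698, 1.11 and 0.360 CPM in the high responder cows 91, 93 and 94 at 18 hours. In the low responder cows 91, 92 and 94 it went from 3.97, 4.49 and 3.85 to 1.35, 1.67 and 0.536 CPM. It was at few CPM throughout, with all exposed wells below all control wells at both time points, and it fell by 1.33 at 3 hours (adjusted p = 0.00121, SE 0.22) and by 2.27 at 18 hours (adjusted p = 1.92e-05, SE 0.24) on the log2 scale. KLHL13 and KLHL23 were called at neither time point.

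Of the F-box genes, FBXL21 was called at 18 hours only, at 0.76 (adjusted p = 0.00335, SE 0.17), and not without the high responder cow 93, the cow with the largest change. FBXO33 rose at 3 hours only (1.12, adjusted p = 2.60e-04, SE 0.14), with a log2 fold change of 0.06 at 18 hours. FBXL6 fell at both time points, with 4.26 to 6.03 CPM in control and 0.840 to 3.21 CPM in exposed wells at 18 hours and a log2 fold change of -1.51 (adjusted p = 2.48e-05, SE 0.17). FBXO31, linked to the degradation of cyclin D1, fell at 18 hours (-1.14, adjusted p = 6.96e-04, SE 0.20) without overlap of the wells. FBXO22, whose substrates include the histone demethylase KDM4A and the repressor BACH1, had 30.7, 31.8 and 31.2 CPM in the 3 hours control wells of high responders and 14.0, 11.0 and 16.6 CPM in their exposed wells. In low responders it had 18.5, 29.6 and 28.1 CPM in control wells and 14.0, 14.9 and 16.8 CPM in exposed wells. All 6 exposed wells were below all 6 control wells, and the log2 fold change was -0.90 (adjusted p = 4.57e-04, SE 0.13), against 0.16 (adjusted p = 0.0925, SE 0.08) at 18 hours. FBXL15 was called lower at 18 hours (-0.63, adjusted p = 0.0373, SE 0.24), was lower in 5 of 6 cows, and lost the call in DESeq2 and when high responder cow 91 or 93 or low responder cow 91 or 94 was left out. FBXL5, FBXO11, FBXO21 and FBXW2 were called at neither time point.

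Of the conjugating enzymes, UBE2C, the partner of the anaphase-promoting complex in mitosis, had the largest fall of the 53 genes at 18 hours. Its control wells at 18 hours held 43.2, 57.3 and 38.5 CPM in high and 32.1, 48.9 and 58.9 CPM in low responders. Its exposed wells held 6.13, 8.99 and 4.20 CPM in high and 8.99, 9.84 and 13.1 CPM in low responders. The wells did not overlap, and the log2 fold change was -2.5 (adjusted p = 1.85e-08, SE 0.09). At 3 hours UBE2C had 21.6 to 61.3 CPM in control and 26.0 to 72.9 CPM in exposed wells, with a log2 fold change of 0.22 (SE 0.10) that was not called. UBE2H and UBE2R2 and the HECT ligases UBE3A and UBE3B were called at neither time point. Among the 11 tested USP genes, 2 rose at 3 hours and 4 at 18 hours, beside 13.5% and 15.1% of all genes called higher, and 0 fell, beside 12% and 21.4% called lower. Those that rose were found in significance order, except USP42. USP12, a deubiquitinase that acts on histones together with WDR48, rose at both time points, by 1.36 (adjusted p = 2.34e-06, SE 0.08) at 3 hours and 1.11 (adjusted p = 3.60e-06, SE 0.09) at 18 hours on the log2 scale. USP3, which removes ubiquitin from histone H2A, rose at 18 hours only, with 24.5 to 29.5 CPM in control and 35.6 to 76.0 CPM in exposed wells (1.03, adjusted p = 2.12e-06, SE 0.08). USP42, found by identifier, and USP14, which sits on the proteasome, rose at 18 hours by 0.76 and 0.65 on the log2 scale. USP4, USP25, USP28, USP38, USP40 and USPL1 were called at neither time point, and USPL1, which acts on SUMO and not on ubiquitin, is counted only because its symbol begins with USP.

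Levels of macrophage markers moved beside the 18 hours changes. MSR1, a scavenger receptor, was lower in exposed wells at 18 hours (-3.76, adjusted p = 1.44e-08, SE 0.13), as were CD14 (-0.75) and AIF1 (-0.95), and CD68 was higher (0.61). S100A12, listed as a granulocyte marker but made by monocytes too, was higher by 2.89 on the log2 scale, and no other granulocyte marker had an identifier. None of these 5 markers was called at 3 hours, where their log2 fold changes lay between -0.14 and 0.09. The part of cell composition in the 18 hours results was not tested.

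**Figure D2:**
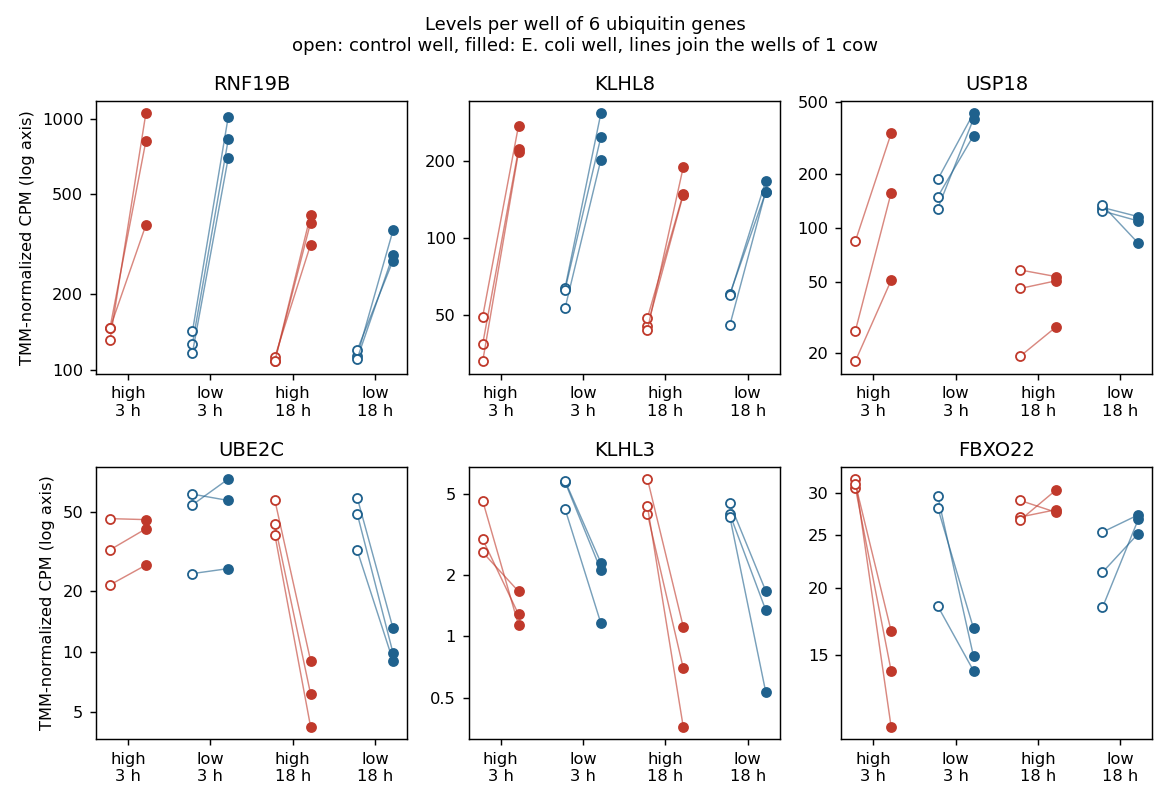
TMM-normalized CPM (log axes that differ between panels) of 6 genes in all 24 wells, with open points for control and filled points for exposed wells, red for high and blue for low responders, and lines joining the wells of 1 cow. RNF19B and KLHL8 rise at both time points, USP18 rises at 3 hours only, UBE2C falls at 18 hours only, KLHL3 falls at both and FBXO22 falls at 3 hours only.

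USP18 is the enzyme that takes ISG15 off proteins and also holds back the type I interferon receptor. In the 3 hours control wells it stood at 84.0, 26.6 and 18.0 CPM in the high responder cows 92, 93 and 94 and at 128, 185 and 148 CPM in the low responder cows 91, 92 and 93. In the exposed wells it stood at 335, 157 and 50.9 CPM in these high responders and 404, 434 and 325 CPM in these low responders. Every cow's exposed well was above its own control well, and in control as in exposed wells the high responder cow 94 was the lowest and cow 92 the highest of the high responders. The mean log2 fold change was 1.72 (adjusted p = 1.47e-05, SE 0.13). At 18 hours the control wells held 58.1, 19.2 and 45.8 CPM in high and 129, 124 and 133 CPM in low responders. The exposed wells held 53.3, 27.9 and 50.5 CPM in high and 115, 109 and 81.8 CPM in low responders. Exposed and control wells overlapped in high responders, the 3 exposed wells of low responders were below their 3 control wells, and the log2 fold change was -0.10 (adjusted p = 0.377, SE 0.10).

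Of the 9 genes listed for the ISG15 pathway, 7 had an identifier, and all 7 rose at 3 hours: ISG15 itself by 3.06, the activating enzyme UBA7 by 1.11, UBE2L6 by 1.0, the ligases HERC5 and HERC6 by 1.75 and 1.65, TRIM25 by 1.0 and USP18 by 1.72 on the log2 scale. At 18 hours 3 of the 7 were called higher, namely ISG15 (1.72, adjusted p = 1.40e-06, SE 0.13), TRIM25 (1.06) and UBE2L6 (0.79, adjusted p = 4.20e-04, SE 0.13), and the other 4 had log2 fold changes between -0.56 and 0.42. UBE2L6 at 3 hours was higher in the exposed well of 5 of 6 cows, and the high responder cow 94 went from 10.1 to 8.49 CPM. UBA7 in low responders was at 184, 175 and 202 CPM in control and 105, 125 and 93.9 CPM in exposed wells at 18 hours, where the exposed wells were all below the control wells. Of 29 interferon-stimulated genes listed, 17 had an identifier, of which 15 rose at 3 hours and 8 rose and 2 fell at 18 hours, beside 13.5%, 15.1% and 21.4% of all genes. All these symbols came from the same partial copies, in which genes with a difference between the phenotypes at 18 hours are over-represented, so that the counts of a list are not a test of it.

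**Figure D3:**
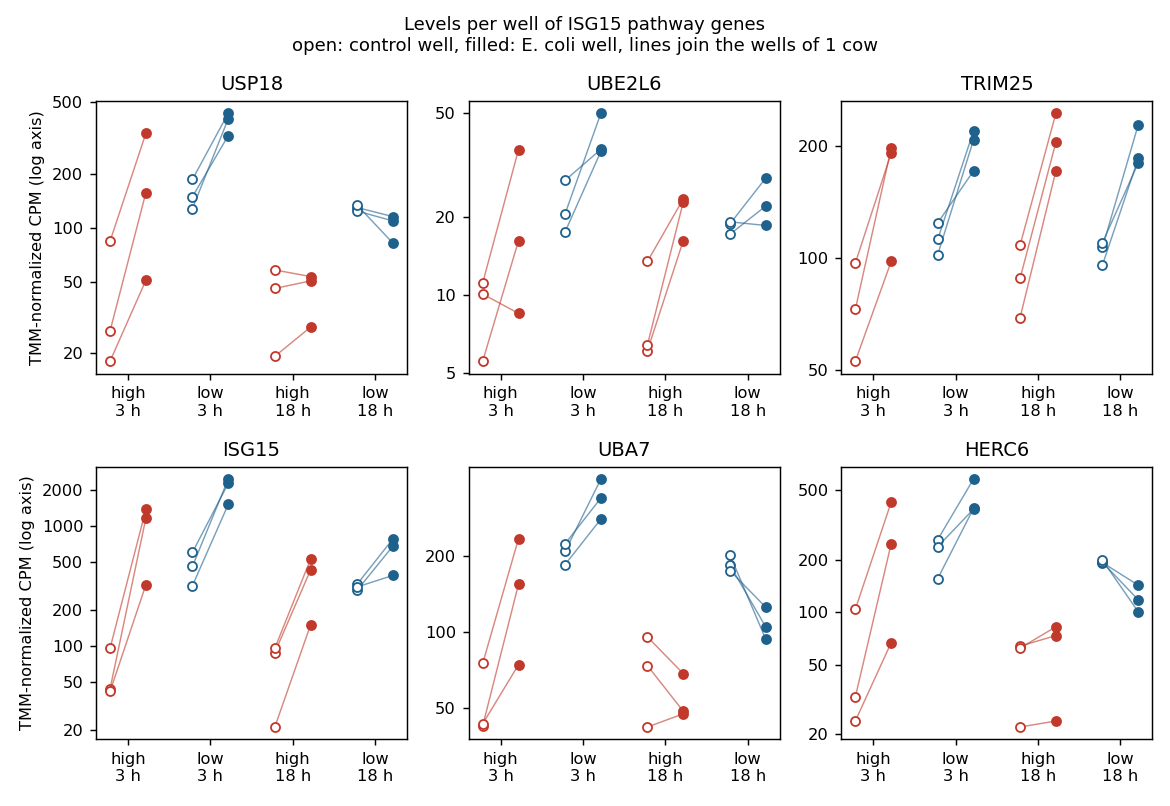
TMM-normalized CPM (log axes that differ between panels) in all 24 wells of 3 of the ubiquitin genes (USP18, UBE2L6 and TRIM25) and of ISG15, UBA7 and HERC6, drawn as open points for control and filled points for exposed wells, red for high and blue for low responders. In the 3 hours control wells the low responder cows lie above the high responder cows in all 6 panels, and at 3 hours the high responder cow with the lowest exposed wells is cow 94. The panels are a selection, and USP18, UBE2L6 and TRIM25 were all found in significance order. For other ubiquitin genes, such as TRIM38 and RNF122, the phenotypes overlap in these control wells. No share of all genes is given for such a separation, so that it is only a description.

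Over the 24 libraries, the 5 genes whose log2 CPM followed USP18 most closely, of 2289 genes with a symbol compared, were HERC6 (Pearson's r = 0.986), ZBP1 (0.964), IFI44L (0.958), HERC5 (0.958) and UBA7 (0.957). Of the ubiquitin genes, FBXO33 (0.839), TRIM21 (0.825), UBE2L6 (0.820) and USP25 (0.737) came closest. These values describe libraries that share cows, exposure and time point, and carry no test.

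The next question was whether the response changed between 3 and 18 hours, tested as the mean effect at 18 hours minus that at 3 hours in 1 fit of all 24 libraries. It changed in 17 of the 53 genes, 8 towards higher and 9 towards lower values, beside 10.7% and 16.1% of all 11905 genes tested (26.8% in either direction). The 29 tested genes found by identifier held 7 of these changes, 5 towards higher and 2 towards lower values. The 24 found in significance order held the other 10, 3 towards higher and 7 towards lower values. They were found through 18 hours libraries that enter this test, so that their share is not read as a property of the families. Among the changes towards lower values, the largest was that of UBE2C (-2.67, adjusted p = 3.62e-08, SE 0.14), followed by USP18 (-1.78, adjusted p = 7.73e-06, SE 0.18), TRIM47 (-1.24, adjusted p = 5.89e-04, SE 0.22), RNF122 (-1.20) and FBXO33 (-1.0). TRIM47 had a log2 fold change of 0.55 at 3 hours, which was not called, and of -0.74 at 18 hours. RNF19B and KLHL8 stayed higher in exposed wells at 18 hours, but by 0.92 and 0.66 less on the log2 scale, written as -0.92 and -0.66 for 18 minus 3 hours. In the other direction the largest was that of FBXO22 (1.11, adjusted p = 5.17e-05, SE 0.14), which was called lower at 3 hours and not at 18 hours, while USP3 (0.98, adjusted p = 2.30e-04, SE 0.15) rose at 18 hours only, and TRIM37 (0.72) and TRIM45 (0.90) were lower in exposed wells at 3 hours and not called at 18 hours. The change of TRIM45 was not called when high responder cow 93 or low responder cow 93 at 3 hours or low responder cow 92 at 18 hours was left out. RNF13, TRIM38, TRIM36, TRIM25, RNF114, USP12, TRIM8 and UBE2L6 rose at both time points without a called change between them, with differences (18 minus 3 hours) from -0.20 to 0.53.

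**Figure D4:**
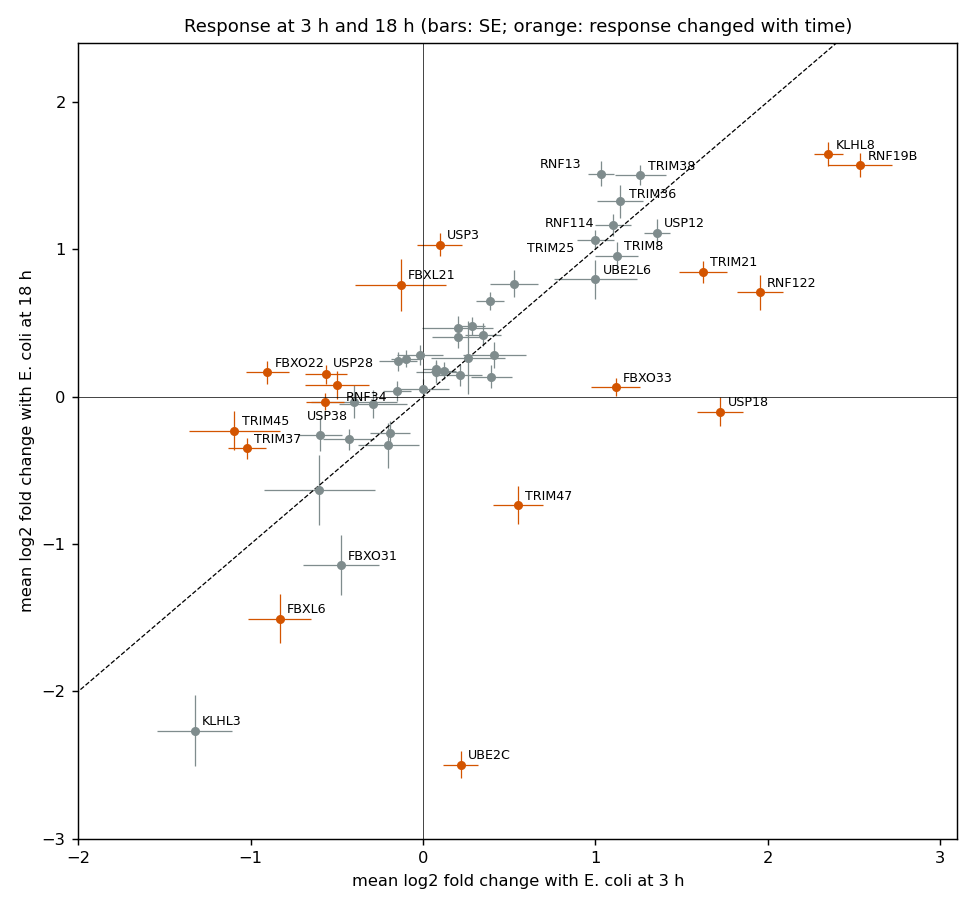
Mean log2 fold change with E. coli over both phenotypes at 3 hours (x axis) and 18 hours (y axis) for 52 of the tested genes, with bars of 1 SE in each direction and a dashed line of equal response. The 17 orange points are genes whose response changed between the time points, with USP18, FBXO33 and RNF122 below the line at the right, UBE2C at the bottom, and USP3 and FBXO22 above the line.

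The study's own comparison asks whether high and low responder cows differ in their response. The 24 genes in significance order were found through the 18 hours libraries, and the study sampled 6 cows for both time points, so that their 3 hours values are not independent of how they were found, whereas the other 29 tested genes were found by identifier. At 3 hours edgeR's test called 0 of the 53 genes for the difference between the effects of high and low responders, beside 0.178% of all genes tested (20 genes). An unadjusted p below 0.05 was found for 5 genes, of which 4 were found in significance order, beside 12.7% of all genes, and DESeq2 called 0 of the 53, beside 1.68% of all genes. Of these 5, 4 are named here, with the larger effect in high responders: RNF122 (1.04, adjusted p = 0.172, SE 0.26), USP18 (0.74, adjusted p = 0.322, SE 0.26), TRIM8 (0.60, adjusted p = 0.371, SE 0.25) and KLHL8 (0.57, adjusted p = 0.239, SE 0.16). For RNF122 the changes per cow were 2.3, 2.65 and 2.22 in high and 1.07, 1.17 and 1.95 in low responders on the log2 scale, without overlap. Without the high responder cow 94, 3 of the 53 genes were called, namely RNF122, TRIM8 and USP18, and the count over all genes rose as well, from 20 to 443 called higher and from 0 to 63 called lower in high responders (4.47% of all genes). The 20 genes became 12 higher and 1 lower without high responder cow 92, and 0 without high responder cow 93, without low responder cow 91, 92 or 93, and without the cow terms. With no filter on low counts, 100 of 15241 genes were called higher in high responders and 3 lower.

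The control wells at 3 hours show where the phenotypes stood without bacteria. High minus low, edgeR's test called 0 of the 53 genes, beside 0.00906% of all 11034 genes tested, while the unadjusted p was below 0.05 in 9, beside 7.85% of all genes, and 3 were called in DESeq2, beside 2.18% of all genes. Of these 9 genes, 8 are among the 24 found in significance order, whose median difference was -0.42, and 1 (KLHL8) is among the 29 found by identifier, with a median of -0.005. The 24 were found through the 18 hours difference between the phenotypes of the same 6 cows, in which the control wells of 18 hours enter, so that this baseline difference is not independent of how they were found. The largest differences were those of USP18 (-1.88, adjusted p = 0.336, SE 0.53), UBE2L6 (-1.32, adjusted p = 0.289, SE 0.34) and TRIM21 (-1.17, adjusted p = 0.326, SE 0.33), the 3 genes that DESeq2 called. All 3 control wells of high responders were below all 3 of low responders for each of them: UBE2L6 had 11.1, 5.56 and 10.1 CPM in high and 20.5, 27.6 and 17.5 CPM in low responders. TRIM38 (-0.71), RNF122 (-0.65), TRIM25 (-0.62), KLHL8 (-0.59) and RNF114 (-0.47) also had lower means in high responders with an unadjusted p below 0.05, and TRIM37 (0.76) had the higher mean. Without high responder cow 92, whose control well held the most USP18 of its group, USP18 was called (-2.79), beside 0.247% of all genes. Beside these, ISG15 differed by -2.96 (SE 0.41), UBA7 by -1.95 (SE 0.27) and HERC6 by -2.05 (SE 0.53) in the same wells, none of them called.

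At 18 hours, 0 of the 29 tested genes found by identifier were called by edgeR for the difference between high and low responders, beside 1.62% of all genes tested (1.34% with the larger effect in high responders), and DESeq2 called 0, beside 3.38% of all genes. The 190 genes called over all by edgeR became 30 without low responder cow 92, 76 without low responder cow 94 and 0 without the cow terms. With no filter on low counts, 329 of 15688 genes were called higher in high responders and 106 lower. For the 29 genes the differences differences lay between -0.91 and 0.32 on the log2 scale with a median of 0.04, and FBXL6 alone had an unadjusted p below 0.05 (-0.80, adjusted p = 0.258, SE 0.34), beside 17.6% of all genes. In exposed wells, high responders held 1.94, 1.37 and 0.840 CPM of FBXL6 and low responders 2.25, 3.21 and 2.41 CPM, without overlap.

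For the 24 genes found in significance order, the same difference is what placed them in the rows and is described only. It was positive in 19 and negative in 5 genes, with a median of 0.52 and a range from -0.95 to 1.07. FBXL21 (1.07), TRIM21 (1.04), UBE2L6 (1.02), TRIM38 (1.00), TRIM37 (-0.95) and TRIM36 (0.85) had the largest. TRIM21 changed by 1.14, 1.65 and 1.32 in high and by 0.43, 0.28 and 0.32 in low responder cows on the log2 scale. Its exposed wells at 18 hours overlapped between the phenotypes, 64.4, 62.6 and 63.9 CPM in high and 65.2, 55.4 and 61.7 CPM in low responders, while its control wells held 29.2, 19.8 and 25.6 CPM in high and 48.5, 45.5 and 49.3 CPM in low responders, without overlap. UBE2L6 and TRIM38 showed that arrangement too, with UBE2L6 control wells at 13.5, 6.11 and 6.43 CPM in high and 18.7, 17.1 and 19.1 CPM in low responders. TRIM36 was different: its control wells overlapped between the phenotypes (9.62 to 12.4 and 11.1 to 15.5 CPM), and its exposed wells held 38.2, 30.4 and 43.5 CPM in high and 29.4, 16.9 and 29.4 CPM in low responders, without overlap. USP3, RNF13 and FBXL5 likewise had overlapping control wells and separate exposed wells. TRIM37, with the most negative value, changed by -0.85, -0.76 and -0.84 in high and by 0.24, -0.01 and 0.20 in low responder cows. Its control wells held 31.0, 30.6 and 33.7 CPM in high and 20.5, 19.8 and 18.7 CPM in low responders. RNF19B was the last of the 24 in the rows used, with a difference of 0.36, and FBXO21 (-0.77) and TRIM25 (0.33) stood just before it. Genes of these families beyond the end of the rows are named here only if they stood in the rows sorted by identifier.

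**Figure D5:**
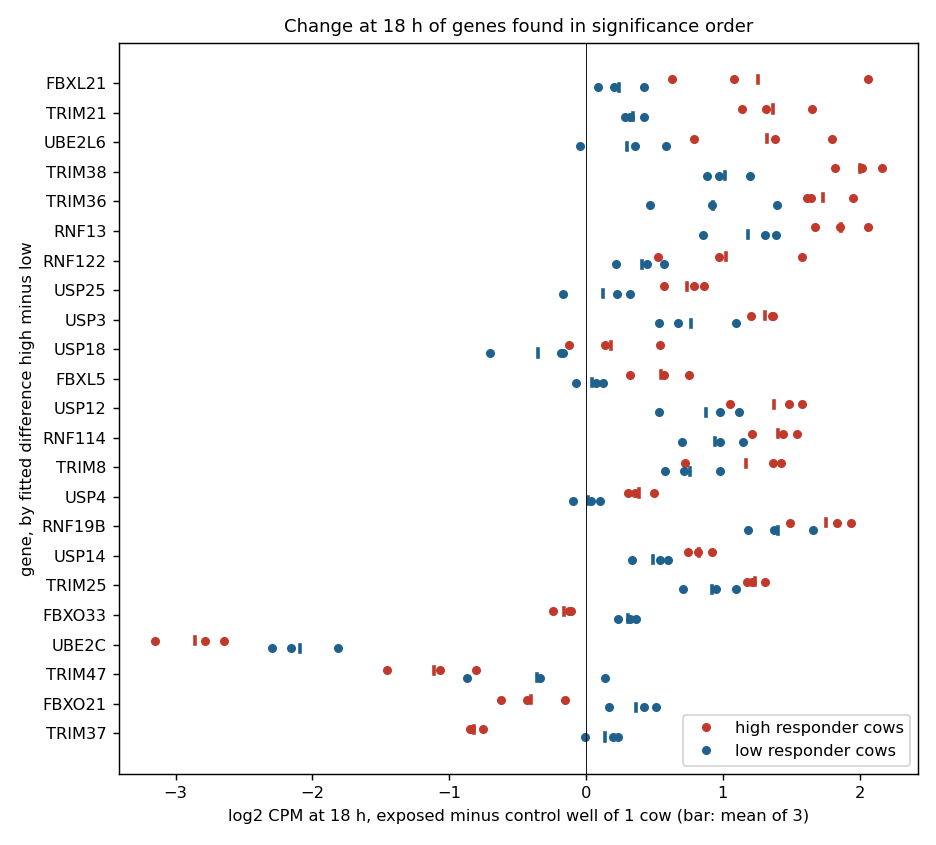
Log2 CPM of the exposed minus the control well at 18 hours for each cow (points; red high, blue low responders; bars are the means of 3 cows) and 23 of the genes found in significance order, sorted by the fitted difference. The values chose these genes and are a description: 18 of the genes drawn have the higher fitted change in high responders and 5, from FBXO33 to TRIM37, the lower.

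Other genes of the ubiquitin system that the copies name were read from fixed lists, beside 13.5% of all genes called higher at 3 hours and 15.1% at 18 hours, and with symbols from the same partial copies, so that the counts are no test of a list. Of 19 other deubiquitinases listed, 3 had an identifier. TNFAIP3, known as A20, which edits ubiquitin chains to end NF-kappa B signalling, had 21.0 to 37.4 CPM in control and 399.9 to 1054 CPM in exposed wells at 3 hours (4.45, adjusted p = 2.76e-08, SE 0.10), and was still higher at 18 hours (3.02, adjusted p = 2.91e-09, SE 0.08). VCPIP1 rose at both time points (1.51 and 0.85) and UCHL1 at 18 hours only (0.78). Of 43 other ligases listed, 10 had an identifier, of which 7 rose at 3 hours and 4 at 18 hours and none fell in edgeR's test at the thresholds above, beside 12% and 21.4% of all genes called lower. Of the 7, HERC5, HERC6 and DTX3L are also counted in the ISG15 or interferon lists. BIRC3, a ligase at the TNF receptor also known as cIAP2, rose by 3.65 (adjusted p = 5.82e-08, SE 0.10) at 3 hours and 1.39 at 18 hours, NEDD4 by 2.15 and 1.03, and NEDD4L by 0.64 and 1.72. ITCH, WWP1 and RBCK1 were called at neither time point. Of 16 genes of the cullin core only ELOC had an identifier (0.30 and 0.38, not called), and of 14 activating enzymes and ubiquitin-like genes UBA2 (-0.13 and -0.09, not called) and UBA7. The immunoproteasome, which degrades ubiquitinated proteins into peptides for presentation, had all 5 listed genes measured: 1 rose at 3 hours, PSMB9 (0.63), and 4 at 18 hours, PSMB10 (1.89), PSMB9 (1.24), PSME2 (1.20) and PSME1 (0.92), while PSMB8 had 0.20.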

How the data were processed

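Stranded mRNA libraries of 24 wells were sequenced by the authors as read pairs, trimmed with Trimmomatic, checked with FastQC 0.11.5, aligned by STAR against UMD 3.1, a bovine genome build, and quantified with RSEM, and differences were tested by the authors with DESeq2 1.22.2. Each library has 1 deposited table with expected counts (estimated by RSEM, not normalized) and TPM per Ensembl gene, both made by the authors. Here expected counts were rounded to whole numbers. TPM were used as deposited, for levels between genes only.

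The fits were made with edgeR 4.0.16 under R 4.3.3: filtering by group, TMM normalization and the quasi-likelihood test with cow terms and an effect of E. coli for each phenotype. SE are the log2 fold change divided by the root of the F statistic, and CPM are TMM-normalized over the 24 libraries. Within a phenotype and time point, a shared library code number was taken to mark the wells of 1 cow, and deviations from the group means correlated at 0.332 to 0.73 in the 12 such pairs and at -0.564 to 0.00102 in the 24 others. Deviations within a group cancel out, so that positive values in the pairs make the others negative on average. The 24 others are therefore no separate support for the pairing. Replicates are separate cows. Controls at 3 hours were compared in a fit of their 6 libraries. Symbols came from copies of the study's supplementary gene lists, each of 1997 rows, whose values were not used. In the first list 1976 rows were in identifier order. The genes and gene lists were chosen with earlier results of these data known. Named genes were, per time point, up to 6 largest rises and 6 largest falls among called genes of the same sign in all 6 cows (4 falls at 18 hours met this), the 4 largest changes with time in each direction, the 6 largest described differences at 18 hours, ISG15 and interferon related genes fixed by name, and the last gene in the rows. Other genes named in the report were chosen after their values were seen or are given to account for every gene tested. Alternatives tried were relative log expression size factors, no filter or a mean of at least 50 counts, DESeq2 1.42.0, no cow term, no minimum fold change, and leaving out each cow. Each test was tried on simulated data. A gene counted in the totals is not reported by name here and is left out of the figures. Positions and sequences are not given, since the reference table here is of another build. Figures were drawn with matplotlib 3.10.9.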

Additional observations from a re-analysis of the deposited data

Results flagged for a closer look

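For 17 of the 53 genes the response to E. coli at 18 hours differed from that at 3 hours, beside 26.8% of all 11905 genes tested. This was edgeR's test of the difference itself in all 24 libraries, given as log2 fold change at 18 hours minus 3 hours. Of the 17 genes, 7 are among the 29 tested that were found by identifier. The other 10 are among the 24 found through the 18 hours libraries. The 9 with a lower response at 18 hours were UBE2C (-2.67), USP18 (-1.78), TRIM47 (-1.24), RNF122 (-1.20), FBXO33 (-1.0), RNF19B (-0.92), TRIM21 (-0.73), KLHL8 (-0.66) and FBXL6 (-0.63). The 8 with a higher response at 18 hours were FBXO22 (1.11), USP3 (0.98), FBXL21 (0.93), TRIM45 (0.90), USP28 (0.76), TRIM37 (0.72), RNF34 (0.62) and USP38 (0.59). Of these, USP28, RNF34 and USP38 were called at neither time point on their own, with log2 fold changes at 3 hours of -0.56, -0.50 and -0.57 and at 18 hours of 0.15, 0.08 and -0.03. Not all 17 changes held in the alternatives described below: FBXL6 lost the call in 13 of 16, and FBXL21 and USP38 in 9 of 17 each. The labels do not name the cows. Within each phenotype the letters of the library codes recur at both time points, but they were not used to tie cows over time. Each time point had its own cow terms, and a fit with cows tied over time was not run.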

How the results depend on the processing

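No alternative turned the direction of a call among the 23 named genes, of whose values 1391 kept their side of the thresholds, 33 fell below them and 13 rose above them. With a mean of at least 50 counts required, 3 genes fell at 3 hours and 3 at 18 hours (6 and 6 without it), since fewer genes were tested. Over all genes, 1037 of 9189 tested fell at 3 hours and 1900 of 9747 at 18 hours with that filter. Without it these were 1350 of 11264 and 2519 of 11759. With no minimum fold change 27 genes rose at 18 hours (17 with it), and no count over all genes is given for that setting. Leaving out 1 cow gave 15 to 16 genes higher and 5 to 9 lower at 3 hours, 16 to 17 higher and 5 to 6 lower at 18 hours, 0 for the 18 hours difference, and 8 to 9 genes with a response lower at 18 than at 3 hours. Over all genes, these fits called 1461 to 1602 higher and 1170 to 1588 lower at 3 hours, and 1719 to 1829 higher and 2389 to 2583 lower at 18 hours. A response lower at 18 than at 3 hours was called in 1830 to 2085 of all genes. For a response higher at 18 than at 3 hours (8 genes) the range was 4 to 9, with 4 when high responder cow 93 at 3 hours and 5 when low responder cow 91 at 18 hours was left out. Over all genes these fits called 1106 and 1164, beside 1274 with all cows. For the 3 hours difference the range was 0 to 3 (3 without high responder cow 94, beside 4.47% of all genes). For the 3 hours control wells it was 0 to 1 (1 without high responder cow 92, beside 0.247%), where DESeq2 called 3, beside 2.18%. The cause of these changes was not tested. With no replicate block for the cow, 5 genes had a response higher at 18 hours, beside 898 of all 11905 genes tested. FBXL6 and RNF7 were no longer called at 3 hours, and the changes with time of FBXL6, FBXL21, RNF34, TRIM45 and TRIM21 were not called. No other count of members moved by over 1.5 times without the block. Of the 17 changes with time, 9 (UBE2C, USP18, TRIM47, RNF122, FBXO33, RNF19B, KLHL8, FBXO22 and USP3) and those of TRIM37 and USP28 held in each of 17 alternatives, while FBXL6 lost the call in 13 of 16, FBXL21 and USP38 in 9 of 17 each, RNF34 in 5, TRIM45 in 4 and TRIM21 in 1. Genes with few CPM, such as KLHL3, FBXO31, TRIM45 and FBXL6, rest on few counts, and the part of depth in their values was not tested.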
